A study of Mus musculus with 28 samples.

Results

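A pair of 4-factor cocktails that share 3 factors and differ in 1 was compared: HGMT, which is Hand2 with GATA4, MEF2C and TBX5, and NGMT, which is NKX2.5 with the same 3 factors. The members are the 3 arrays titled HGMT-treated MEFs, biological replicates 1 to 3, and the 3 arrays titled NGMT-treated MEFs, replicates 4 to 6, so 6 of the 28 arrays of the series. They lie in the second of 3 separately scaled array series, together with 3 arrays of GMT cells (the 3 shared factors alone), 3 of HNGMT cells (Hand2 and NKX2.5 together with the 3) and 3 of DMT cells (MYOCD in place of GATA4). The 3 NGMT arrays of the first array series were left out of the comparison because they were scaled apart from HGMT. The labels do not name these array series, which were told apart by the arrays' names and distributions, with array medians of 6.86 to 6.95 log2 signal in the one used here and of 6.68 to 6.75 and 7.64 to 7.65 in the other two.

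All cells began as mouse embryonic fibroblasts (MEFs), whose strain and sex the labels do not give. Each culture in both groups received lentiviruses for rtTA (the activator that switches tetO genes on in doxycycline), for a TroponinT-GCaMP5-Zeo reporter and for each tetO-controlled factor. Doxycycline was present at 2 µg/mL, zeocin was added at 300 µg/mL for the last 7 days, and RNA was taken on day 21 from cultures titled biological replicates. Zeocin resistance was driven by the troponin T reporter, so the cells of every group were selected for activity of that promoter and the arrays read the mixture that survived. In such bulk samples fewer cells of a type and less RNA per cell cannot be told apart. The series asked which factor combination gives the best reprogramming of fibroblasts to induced cardiomyocytes (iCMs), with calcium activity as the measure.

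Hand2 is a basic helix-loop-helix factor that binds E-box DNA with a partner protein. It is needed for growth of the right ventricle and acts in the epicardium, the limb bud and sympathetic neurons. NKX2.5 is a homeodomain factor of the early heart field, and the atrial natriuretic peptide gene Nppa is among its best known direct targets. Both factors work beside GATA4, TBX5 and MEF2C in the embryonic heart.

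Values are the log2 signal that the authors deposited, a unit on which a difference of 1 is 2-fold. Array medians were 6.90 to 6.95 for HGMT and 6.87 to 6.89 for NGMT. Correlations over all genes lay between 0.996 and 0.998 within a group and between 0.974 and 0.976 across the HGMT and NGMT arrays. In the second array series HNGMT replicate 1 stood apart. It had a mean correlation of 0.971 with its own group, and the other 2 HNGMT replicates had 0.985 and 0.982. That array enters the tests below through the shared estimate of spread, so main counts are also given without it. Of 7 cardiomyocyte markers, 7 lay above the array median on every HGMT array and 6 on every NGMT array, the exception being Myh6. All 7 fibroblast markers lay above the median on all 6 arrays, with Col1a1 at 12.35 to 12.44 in HGMT and 12.19 to 12.46 in NGMT. Of 6 macrophage markers only Cd68 lay above the median on every array of both groups. No neural or glial marker among the 4 with a probe set did so in either group.

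The delivered genes were read first. Hand2 had log2 signals of 9.97, 10.15 and 10.09 on the HGMT arrays, against 7.30, 7.37 and 7.27 on the NGMT arrays. The difference, HGMT minus NGMT, was 2.75 ± 0.09 (standard error, SE; limma, adjusted p = 7.70e-11), a signal 6.74-fold higher in HGMT, and the groups were far apart. All differences below are HGMT minus NGMT on the log2 scale ± SE, from 3 arrays a group, unless another pair of groups is named. Nkx2-5 had 7.97, 8.04 and 7.96 on the HGMT arrays, against 7.95, 7.92 and 8.02 on the NGMT arrays. These 2 sets of values overlap, with a difference of 0.02 ± 0.06 and a 95% interval from -0.11 to 0.16 (limma, adjusted p = 0.86). HNGMT cells, which also received NKX2.5, averaged 7.996, and GMT cells, which did not, averaged 7.94. The 1 probe set named Nkx2-5 therefore does not tell the labels with and without NKX2.5 apart. Nothing in the sources used here says whether it can read the delivered gene. The shared factors did not pass the test: the difference was 0.17 ± 0.09 for Gata4, 0.18 ± 0.09 for Mef2c and -0.03 ± 0.13 for Tbx5.

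Of 11426 genes tested, 1918 (16.8%) differed between HGMT and NGMT at an adjusted p under 0.05 (limma, Benjamini-Hochberg). HGMT was higher for 841 genes (7.36%) and lower for 1077 (9.43%). That split turns with each array centred on its median, to 9.55% higher and 8.31% lower, or 53.5% of called genes higher against 43.8% as deposited. Percentages beside the gene lists below are shares of a list's tested members that rose or fell, to be read against 7.36% and 9.43% of all genes, and a share near those says nothing particular about a list. The shares of all genes were 12.4% and 18% without HNGMT replicate 1. The difference was at least 2-fold for 182 genes (1.59%), of which 105 were higher and 77 lower in HGMT. The median difference over all genes tested was -0.02, and the median half-width of a gene's 95% interval was 0.17. For 5374 genes the HGMT and NGMT arrays did not overlap, which is 47.0% of those tested against 16.8% called. Without HNGMT replicate 1 in the estimate of spread, 3473 genes were called and 183 of these differed at least 2-fold, so the count of small differences depends on that array and the count of large ones hardly does. When 1 of the 6 arrays was left out, 1260 to 1494 genes were called, the fewest without HGMT replicate 3. List counts given below without 1 of these 6 arrays are to be read against that fall in calls over all genes.

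**Figure D1:**
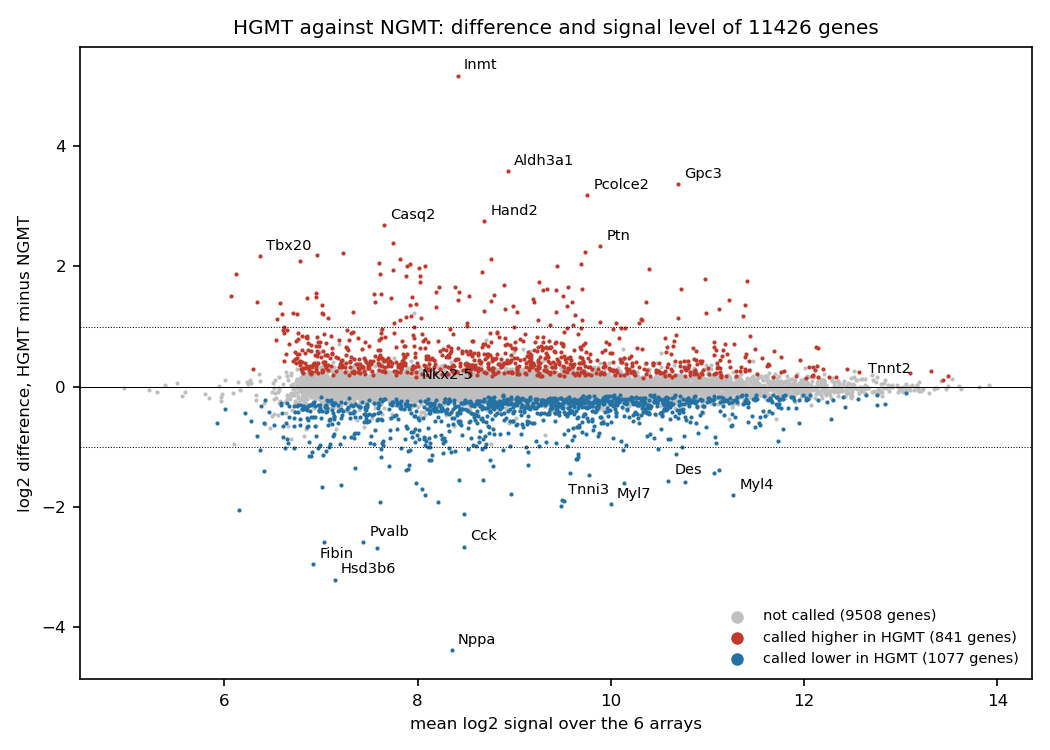
Each point is 1 of 11426 genes, with the mean log2 signal over the 6 arrays on the x axis and the log2 difference HGMT minus NGMT on the y axis; red and blue points are genes called higher (841) and lower (1077) in HGMT, grey points were not called, and dotted lines mark a 2-fold difference. Inmt at 5.17 and Nppa at -4.39 are the extremes, and Nkx2-5 and Tnnt2 lie near 0.

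Both natriuretic peptide genes tested fell, and Nppa had the largest fall of all genes tested. Nppa encodes the precursor of atrial natriuretic peptide, a hormone of atrial and of embryonic heart muscle. Its log2 signals were 6.13, 6.38 and 5.98 on the HGMT arrays, against 10.81, 10.21 and 10.62 on the NGMT arrays. The 3 HGMT arrays lay below the array median, so the size is less exact than the gap: -4.39 ± 0.15, or 20.9-fold lower in HGMT (limma, adjusted p = 7.05e-11). Nppb, which encodes B-type natriuretic peptide and sits near Nppa on chromosome 4, had 6.77, 6.63 and 6.76 on the HGMT arrays, against 7.64, 7.36 and 7.60 on the NGMT arrays. Its difference was -0.82 ± 0.10 (adjusted p = 4.24e-05), the groups did not overlap, and HGMT lay below the array median. Of the 10 tested genes of the atrial and natriuretic list, 2 rose (20%) and 5 fell (50%), with a median difference of -0.22 against -0.02 for all genes.

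The promoter of Nppa is shown because Nppa is the gene with the largest fall and a known target of NKX2.5. The sequence is the RefSeq window of GRCm38.p6 from 250 bases before to 50 bases after the annotated start, chr4:148000472-148000771, plus strand, 5′ to 3′. Capitals mark the 1 match to TNAAGTG, a core element bound by NKX2.5, which spans positions -241 to -235 when the start is counted as 0.
Nppa: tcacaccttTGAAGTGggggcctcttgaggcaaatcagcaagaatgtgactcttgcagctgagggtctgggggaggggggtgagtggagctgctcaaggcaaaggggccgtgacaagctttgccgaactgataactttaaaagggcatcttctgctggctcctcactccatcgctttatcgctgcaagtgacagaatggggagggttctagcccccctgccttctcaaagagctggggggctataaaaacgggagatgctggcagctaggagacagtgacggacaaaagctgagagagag
The window held no match on either strand to CATCTG, the E-box preferred by HAND2. It held none to AGATAA, a core that GATA factors bind. Variants of that core, such as the TGATAA in this window, were not searched for.

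Both atrial myosin light chains and several other muscle genes fell, while some core sarcomere genes did not pass the test. Myl7, the atrial regulatory myosin light chain, had 8.87, 8.92 and 9.29 on the HGMT arrays, against 11.02, 10.94 and 10.96 on the NGMT arrays. Its difference was -1.95 ± 0.23 (adjusted p = 3.29e-05). Myl4, the atrial essential light chain, had 10.54, 10.10 and 10.46 on the HGMT arrays, against 12.25, 12.04 and 12.22 on the NGMT arrays. HGMT was thus lower for both light chains by well over the spread within a group, the Myl4 difference being -1.80 ± 0.11 (adjusted p = 4.26e-08). Tnni3, the cardiac inhibitory troponin, had 8.66, 8.41 and 8.59 on the HGMT arrays, against 10.43, 10.38 and 10.49 on the NGMT arrays. Des, the muscle intermediate filament desmin, had 9.80, 9.85 and 9.78 on the HGMT arrays, against 11.37, 11.30 and 11.44 on the NGMT arrays. The differences were -1.88 ± 0.11 for Tnni3 (adjusted p = 2.86e-08) and -1.56 ± 0.10 for Des (adjusted p = 7.58e-08), and no HGMT array reached an NGMT array for either gene. Smpx, a small muscle protein of the costamere, averaged 6.65 in HGMT and 8.57 in NGMT (difference -1.92 ± 0.16). Myom2, an M-band protein, averaged 6.12 in HGMT and 7.14 in NGMT (difference -1.02 ± 0.12), and for both of these genes HGMT lay below the array median.

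The cardiac troponin T gene Tnnt2, whose promoter type drove the selection, had 12.67, 12.68 and 12.62 on the HGMT arrays, against 12.57, 12.40 and 12.61 on the NGMT arrays. The difference of 0.13 ± 0.09 did not pass the test (adjusted p = 0.365). Actn2, the Z-disc protein sarcomeric actinin, had a difference of 0.00 ± 0.09 with a 95% interval from -0.18 to 0.19. Actc1, cardiac actin, had -0.28 ± 0.12 with overlapping groups and did not pass either (adjusted p = 0.127). Some sarcomere-linked genes went the other way, Myh6 and Fhl2 among them. Myh6, the fast cardiac myosin heavy chain, had 7.43, 7.12 and 7.39 on the HGMT arrays, against 6.70, 6.80 and 6.65 on the NGMT arrays, and NGMT lay below the array median on all 3 arrays. It rose by 0.60 ± 0.14 (adjusted p = 0.00857). Fhl2, a LIM-domain protein of the Z-disc, had 11.02, 11.06 and 11.12 on the HGMT arrays, against 9.77, 9.56 and 9.66 on the NGMT arrays, a rise of 1.40 ± 0.06 (adjusted p = 1.48e-09). In counts, 1 of 5 tested thick filament genes rose (20%) and 2 fell (40%), and 3 of 19 Z-disc and M-band genes rose (15.8%) and 5 fell (26.3%). The 2 thick filament falls were Myl7 and Myl4, which the atrial and natriuretic list also counts. Some lists share members in this way, so their counts are not independent. Of 12 thin filament genes none rose and 3 fell (25%), namely Tnni3, Tpm1 and Nrap. The last pair changed little, Tpm1 by -0.24 ± 0.07 and Nrap by -0.32 ± 0.08 with HGMT below the array median. Tpm1 was not called whichever of the 6 arrays was left out, and Nrap was not without HGMT replicate 1 or 3 or NGMT replicate 5, which left 1 fall, whereas 1 rose and 4 fell without HNGMT replicate 1. Of the 12 thin filament genes 2 fell with quantile normalization or with each array centred on its median. With the 6 arrays alone 1 rose and 6 fell (50%, against 19% of all genes). With no filter 6 of 17 fell (35.3%, against 5.14% of all genes). The genes added there lay above the array median on fewer than 3 of the 15 arrays. The medians of the 3 lists were -0.11, -0.02 and -0.10.

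**Figure D2:**
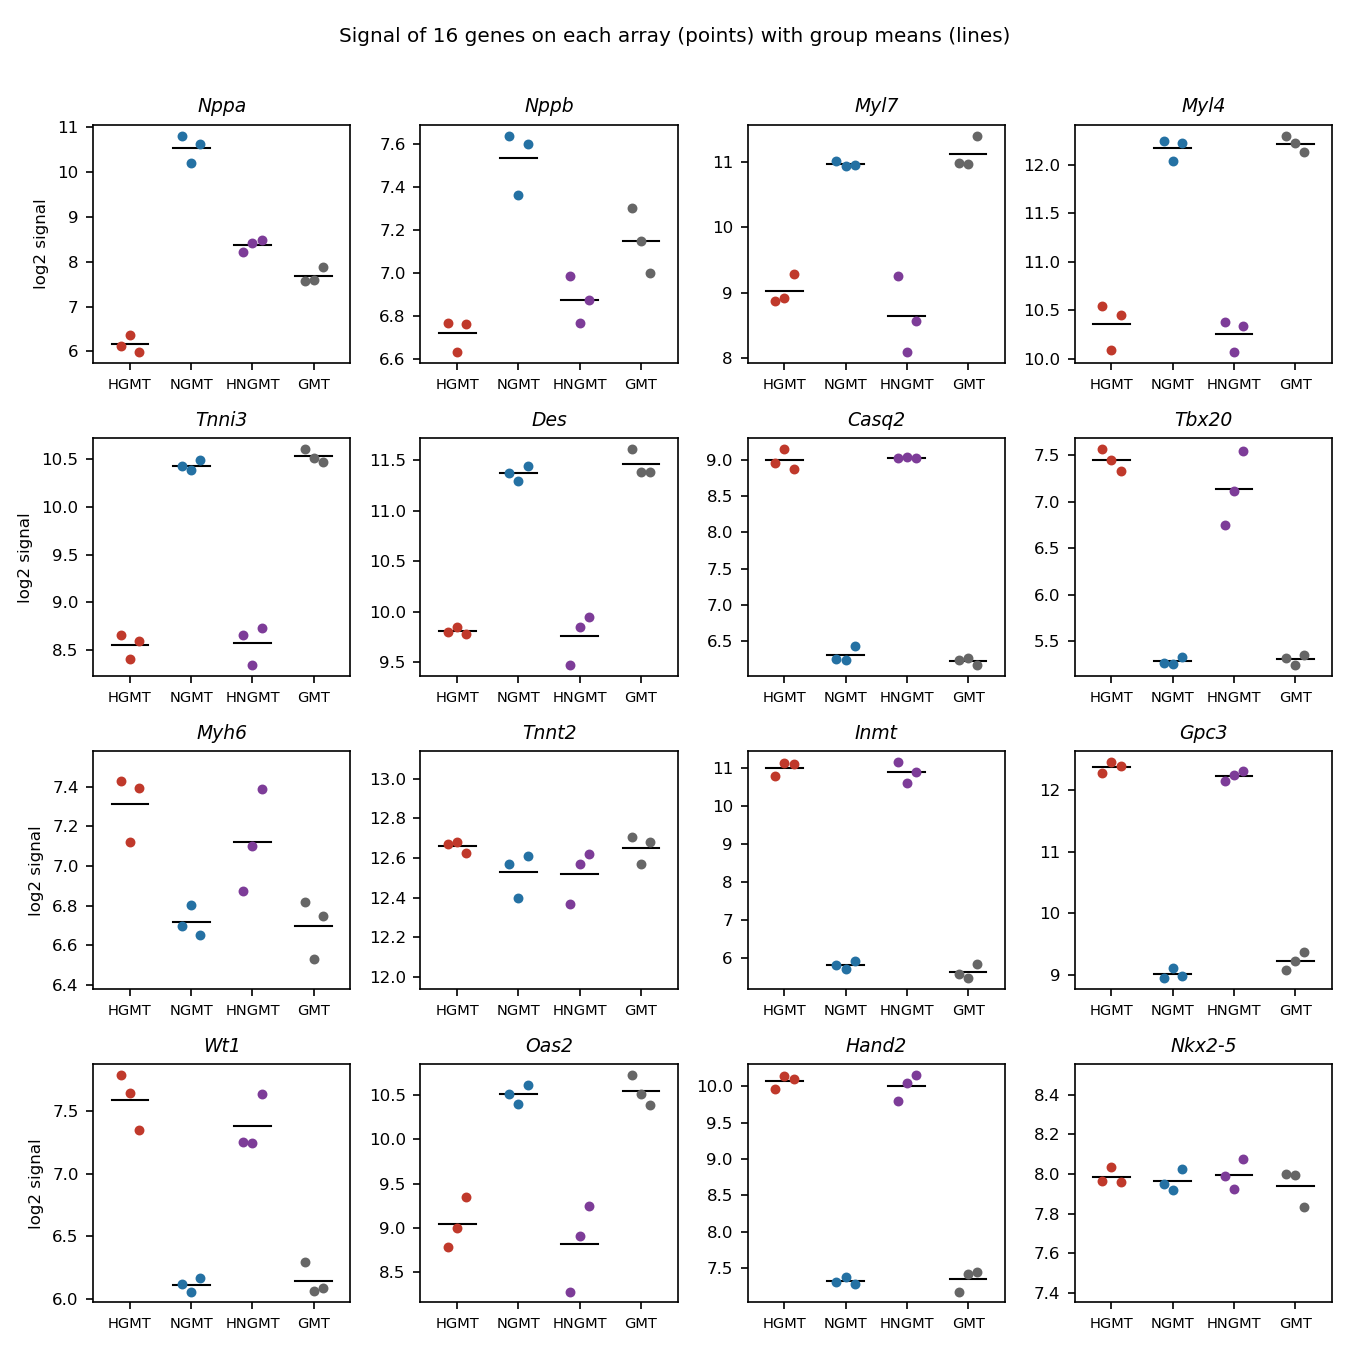
Each panel shows 1 gene, with a point for each array and a line for the group mean of log2 signal, for HGMT, NGMT, HNGMT and GMT (3 arrays each); y axes differ between panels and do not start at 0. Myl7, Myl4, Tnni3 and Des are low in both groups that received Hand2 and high in the other 2, Casq2, Tbx20, Inmt and Gpc3 show the opposite, and Nppa differs in all 4 groups.

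Calcium handling genes went both ways, with Casq2 and Pvalb far from the rest. Casq2, cardiac calsequestrin, the calcium-binding protein of the sarcoplasmic reticulum, had 8.96, 9.15 and 8.88 on the HGMT arrays, against 6.26, 6.25 and 6.43 on the NGMT arrays. The NGMT arrays lay below the array median and every HGMT array well above it, and the difference was 2.68 ± 0.08, 6.43-fold (adjusted p = 5.01e-11). Trdn, triadin, which links calsequestrin to the ryanodine receptor, had 7.75, 7.49 and 7.51 on the HGMT arrays, against 8.52, 8.32 and 8.50 on the NGMT arrays. Trdn fell by 0.86 ± 0.18 (adjusted p = 0.00427). Pvalb, parvalbumin, a soluble calcium buffer of fast muscle, had 6.08, 6.06 and 6.29 on the HGMT arrays, against 8.64, 8.89 and 8.66 on the NGMT arrays, and its HGMT arrays lay below the array median. It fell by 2.59 ± 0.23 (adjusted p = 2.61e-06). Ryr2, the ryanodine receptor itself, differed by 0.03 ± 0.10 and Atp2a2, the SERCA2 pump, by -0.08 ± 0.09, with overlapping groups for both and no call. Of 23 tested calcium handling genes, 6 rose (26.1%) and 4 fell (17.4%), and the median was -0.05. The falls numbered 2 without HGMT replicate 2 or 3 or any 1 of the NGMT replicates.

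The 15 tested channel and gap junction genes included 2 that rose (13.3%) and 4 that fell (26.7%), with a median of 0.07. Only 1 rose without HGMT replicate 1 or 3 or NGMT replicate 4 or 5, and 2 fell without HGMT replicate 2 or NGMT replicate 6. Hcn4, the pacemaker channel, had 7.81, 7.82 and 7.73 on the HGMT arrays, against 7.09, 6.82 and 6.71 on the NGMT arrays. It rose by 0.91 ± 0.12 (adjusted p = 0.000122), and all HGMT arrays lay above all NGMT arrays. Popdc3, of the Popeye family of muscle membrane proteins, had a difference of -0.51 ± 0.07 (adjusted p = 0.00024), from means of 7.10 in HGMT and 7.60 in NGMT. The ventricular list held 6 tested genes, of which 1 rose and 2 fell, and none rose without HGMT replicate 2 or NGMT replicate 4 or 5.

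Among cardiac transcription factors other than the delivered ones, Tbx20 had the largest difference. Tbx20, a T-box factor of the heart chambers, had 7.57, 7.45 and 7.33 on the HGMT arrays, against 5.27, 5.25 and 5.33 on the NGMT arrays. NGMT was below the array median on all 3 arrays and HGMT was above it, a rise of 2.17 ± 0.14 (adjusted p = 7.93e-08). Gata6, a relative of GATA4, averaged 8.76 in HGMT and 8.16 in NGMT (difference 0.59 ± 0.11, adjusted p = 0.00176). Tbx3, a T-box repressor of the conduction system and limb, had 7.53, 7.58 and 7.48 on the HGMT arrays, against 7.999, 8.06 and 8.14 on the NGMT arrays. It fell by 0.54 ± 0.09 (adjusted p = 0.000769). Of 24 tested genes of the list, 3 rose (12.5%) and 1 fell (4.17%), together near the 16.8% of all genes called, and 5 rose and 1 fell without HNGMT replicate 1. The smallest rise was that of Hopx at 0.23 ± 0.07, which was no longer called without HGMT replicate 1 or 3 or NGMT replicate 4 or 5 (0.20 to 0.24, adjusted p = 0.0711 to 0.113). Of 13 genes for basic helix-loop-helix factors and their inhibitors, 2 rose (Hand2 and Id2) and 1 fell, and the fall was lost when any of the 6 arrays other than NGMT replicate 4 was left out.

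Outside muscle, the largest rises were genes for enzymes, proteoglycans and matrix proteins. Inmt, indolethylamine N-methyltransferase, had the largest of all, with 10.79, 11.12 and 11.09 on the HGMT arrays, against 5.82, 5.73 and 5.93 on the NGMT arrays. NGMT lay below the array median and HGMT far above it, a difference of 5.17 ± 0.13 or 36-fold (adjusted p = 6.83e-12). Aldh3a1, an aldehyde dehydrogenase, had 10.67, 10.77 and 10.74 on the HGMT arrays, against 7.10, 7.16 and 7.18 on the NGMT arrays. Gpc3, the heparan sulphate proteoglycan glypican-3, had 12.27, 12.46 and 12.40 on the HGMT arrays, against 8.94, 9.11 and 8.98 on the NGMT arrays. Replicates of both genes lay close together, and the differences were 3.58 ± 0.08 and 3.37 ± 0.11. Pcolce2, an enhancer of procollagen processing, had 11.31, 11.48 and 11.25 on the HGMT arrays, against 8.28, 8.16 and 8.04 on the NGMT arrays, a difference of 3.18 ± 0.10. Ptn, the heparin-binding growth factor pleiotrophin, had 10.97, 11.15 and 11.05 on the HGMT arrays, against 8.91, 8.57 and 8.69 on the NGMT arrays, a difference of 2.33 ± 0.10. The highest adjusted p of these 5 genes was that of Ptn, 8.12e-10.

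The rest of the 15 largest rises were Hand2, Casq2 and Tbx20, described above, and 7 others. Frem1, a basement membrane protein, differed by 2.40 ± 0.12, Htra4, a serine protease, by 2.25 ± 0.20 and Mpzl2, an adhesion protein, by 2.23 ± 0.17. AI593442, which has no described role here, differed by 2.13 ± 0.16, Cmklr1, the chemerin receptor, by 2.13 ± 0.15 and Erv3, an endogenous retroviral sequence, by 2.09 ± 0.12. NGMT lay below the array median for Frem1, Mpzl2, Cmklr1 and Erv3, so for these the level in HGMT is better measured than the size of the difference. Gucy1b1, a subunit of the nitric oxide receptor guanylate cyclase, had 8.08, 8.20 and 7.88 on the HGMT arrays, against 5.81, 5.84 and 5.92 on the NGMT arrays, a difference of 2.20 ± 0.12 (adjusted p = 1.25e-08), with NGMT below the array median.

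Its promoter is shown as the one among the largest rises with 2 HAND2-type E-boxes. The window is chr3:82074662-82074961 of GRCm38.p6, minus strand, written 5′ to 3′ from RefSeq. Capitals mark CATCTG at positions -104 to -99 and its reverse complement at -250 to -245, with the start as 0.
Gucy1b1: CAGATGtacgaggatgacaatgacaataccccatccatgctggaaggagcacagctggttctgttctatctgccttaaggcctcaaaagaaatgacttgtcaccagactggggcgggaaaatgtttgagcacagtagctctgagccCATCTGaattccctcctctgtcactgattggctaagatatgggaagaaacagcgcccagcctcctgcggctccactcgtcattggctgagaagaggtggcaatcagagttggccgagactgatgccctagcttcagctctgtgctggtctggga
Neither TNAAGTG nor AGATAA was found in it.

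The largest falls outside muscle included secreted factors, a steroid enzyme and membrane proteins. Hsd3b6, a 3β-hydroxysteroid dehydrogenase, had 5.75, 5.44 and 5.42 on the HGMT arrays, against 8.71, 8.72 and 8.81 on the NGMT arrays. Fibin, a secreted protein first described in fish fin buds, had 5.35, 5.36 and 5.61 on the HGMT arrays, against 8.25, 8.49 and 8.43 on the NGMT arrays. The differences were -3.21 ± 0.18 and -2.95 ± 0.21, with HGMT below the array median for both. Cck, the peptide hormone cholecystokinin, had 7.23, 7.24 and 6.97 on the HGMT arrays, against 9.71, 9.71 and 9.99 on the NGMT arrays, a difference of -2.66 ± 0.19. Coch, the matrix protein cochlin, had 7.53, 7.50 and 7.23 on the HGMT arrays, against 9.58, 9.52 and 9.50 on the NGMT arrays, a difference of -2.11 ± 0.09. For these 2 genes both groups lay above the array median, so both levels are well measured. Sp100, a nuclear body protein, differed by -2.68 ± 0.12, Gpr165, an orphan receptor, by -2.59 ± 0.15 and Plac8 by -2.05 ± 0.15, again with HGMT below the array median. Tslp, the cytokine thymic stromal lymphopoietin, differed by -1.98 ± 0.23 and 2610528A11Rik by -1.90 ± 0.18. Mmp9, a gelatinase, had 7.12, 7.45 and 7.20 on the HGMT arrays, against 9.51, 9.52 and 8.48 on the NGMT arrays, and its NGMT replicates spread most widely of the 15 genes (SD 0.59), with a difference of -1.91 ± 0.33 (adjusted p = 0.000968).

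The promoter of Hsd3b6, the second largest fall, is set out for comparison, since it also holds 2 matches to the HAND2 E-box. It spans chr3:98814394-98814693 of GRCm38.p6, minus strand. Capitals mark CATCTG at positions -5 to 0 and 29 to 34.
Hsd3b6: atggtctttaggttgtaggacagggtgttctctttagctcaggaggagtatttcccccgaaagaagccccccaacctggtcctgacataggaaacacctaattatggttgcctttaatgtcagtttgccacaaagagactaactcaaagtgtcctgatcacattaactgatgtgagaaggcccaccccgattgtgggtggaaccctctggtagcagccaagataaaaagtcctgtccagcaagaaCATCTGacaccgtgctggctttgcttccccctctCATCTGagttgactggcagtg
An AGATAA match at -31 to -26 is left in lower case and TNAAGTG was not found.

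Over all 32851 RefSeq promoter windows, 17.2% held CATCTG, 11.5% TNAAGTG and 11.2% AGATAA on either strand. For the 11681 windows of genes tested the shares were 11.3%, 8.66% and 6.1%. Genes at least 2-fold higher in HGMT matched 99 windows of 76 genes, with 20.2%, 7.07% and 12.1%. Those at least 2-fold lower matched 73 windows of 59 genes, with 26.0%, 9.59% and 12.3%. The E-box was thus found in both directions, and no comparison of these shares was tested. None of the 3 motifs was found in the windows of Inmt, Casq2, Tbx20, Myl7 or Tnni3, and variants of the motifs were not searched for.

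Both groups were also set against GMT, and the 2 comparisons share the same 3 GMT arrays. HGMT differed from GMT for 2000 genes (17.5%) and NGMT from GMT for 1 gene (0.00875%) at an adjusted p under 0.05, with 187 genes at an unadjusted p under 0.05 in NGMT against GMT (limma). That 1 gene was Nppa. Nppa averaged 6.16 in HGMT and 10.55 in NGMT, against 7.67 in GMT, with -1.51 ± 0.15 for HGMT minus GMT (adjusted p = 4.64e-06) and 2.87 ± 0.15 for NGMT minus GMT (adjusted p = 1.40e-07). Nppb showed -0.43 ± 0.10 for HGMT minus GMT, which passed, and 0.38 ± 0.10 for NGMT minus GMT, which did not. No other gene passed in NGMT against GMT, which does not show equal levels: Gpr165 had -0.55 ± 0.15, Eno3 -0.22 ± 0.05 and Fmod 0.46 ± 0.34 for NGMT minus GMT. Myl7 had -2.10 ± 0.23 for HGMT minus GMT and -0.15 ± 0.23 for NGMT minus GMT. Casq2 had 2.77 ± 0.08 and 0.09 ± 0.08, in the same order, and Inmt had 5.36 ± 0.13 and 0.19 ± 0.13. The largest NGMT minus GMT differences among the 30 genes plotted, apart from Nppa, were those of 2610528A11Rik (-0.60 ± 0.18) and Cck (-0.60 ± 0.19), and neither passed the test.

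**Figure D3:**
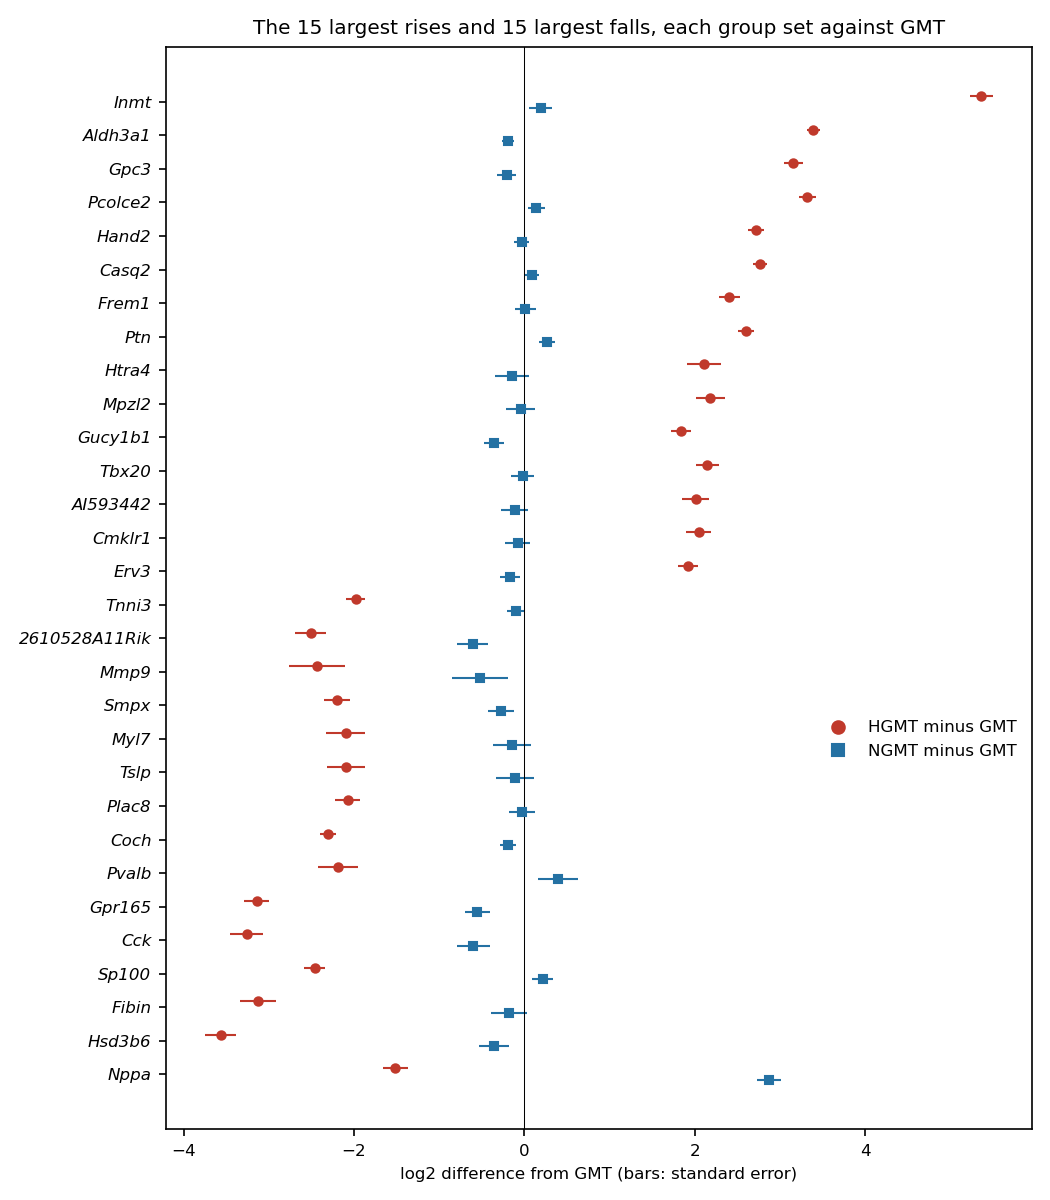
The 15 largest rises and 15 largest falls in HGMT minus NGMT, from top to bottom, with the log2 difference from GMT on the x axis for HGMT (circles) and NGMT (squares); bars are standard errors, and the 3 GMT arrays are shared by all values. The NGMT squares lie between -0.60 (2610528A11Rik and Cck) and 0.40 (Pvalb) for every gene except Nppa, at 2.87, while the HGMT circle nearest to 0 is that of Nppa, at -1.51.

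Cells with both Hand2 and NKX2.5 were read in the same way. HNGMT differed from HGMT for 1 gene (0.00875%), again Nppa, with 1713 genes at an unadjusted p under 0.05, and from NGMT for 2104 genes (18.4%) (limma). Nppa had 8.23, 8.42 and 8.48 on the HNGMT arrays, a mean of 8.38 that lay between HGMT and NGMT. Its differences were 2.22 ± 0.15 for HNGMT minus HGMT and -2.17 ± 0.15 for HNGMT minus NGMT. Myl4 averaged 10.26 in HNGMT, beside 10.36 in HGMT and 12.17 in NGMT. Casq2 averaged 9.03 in HNGMT, beside 8.997 in HGMT and 6.31 in NGMT. So the light chain and calsequestrin levels with both factors lay with those of Hand2 alone, and the Nppa level did not. HNGMT replicate 1 adds to the spread of these comparisons, and absence of a call in HNGMT against HGMT does not show equal levels.

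**Figure D4:**
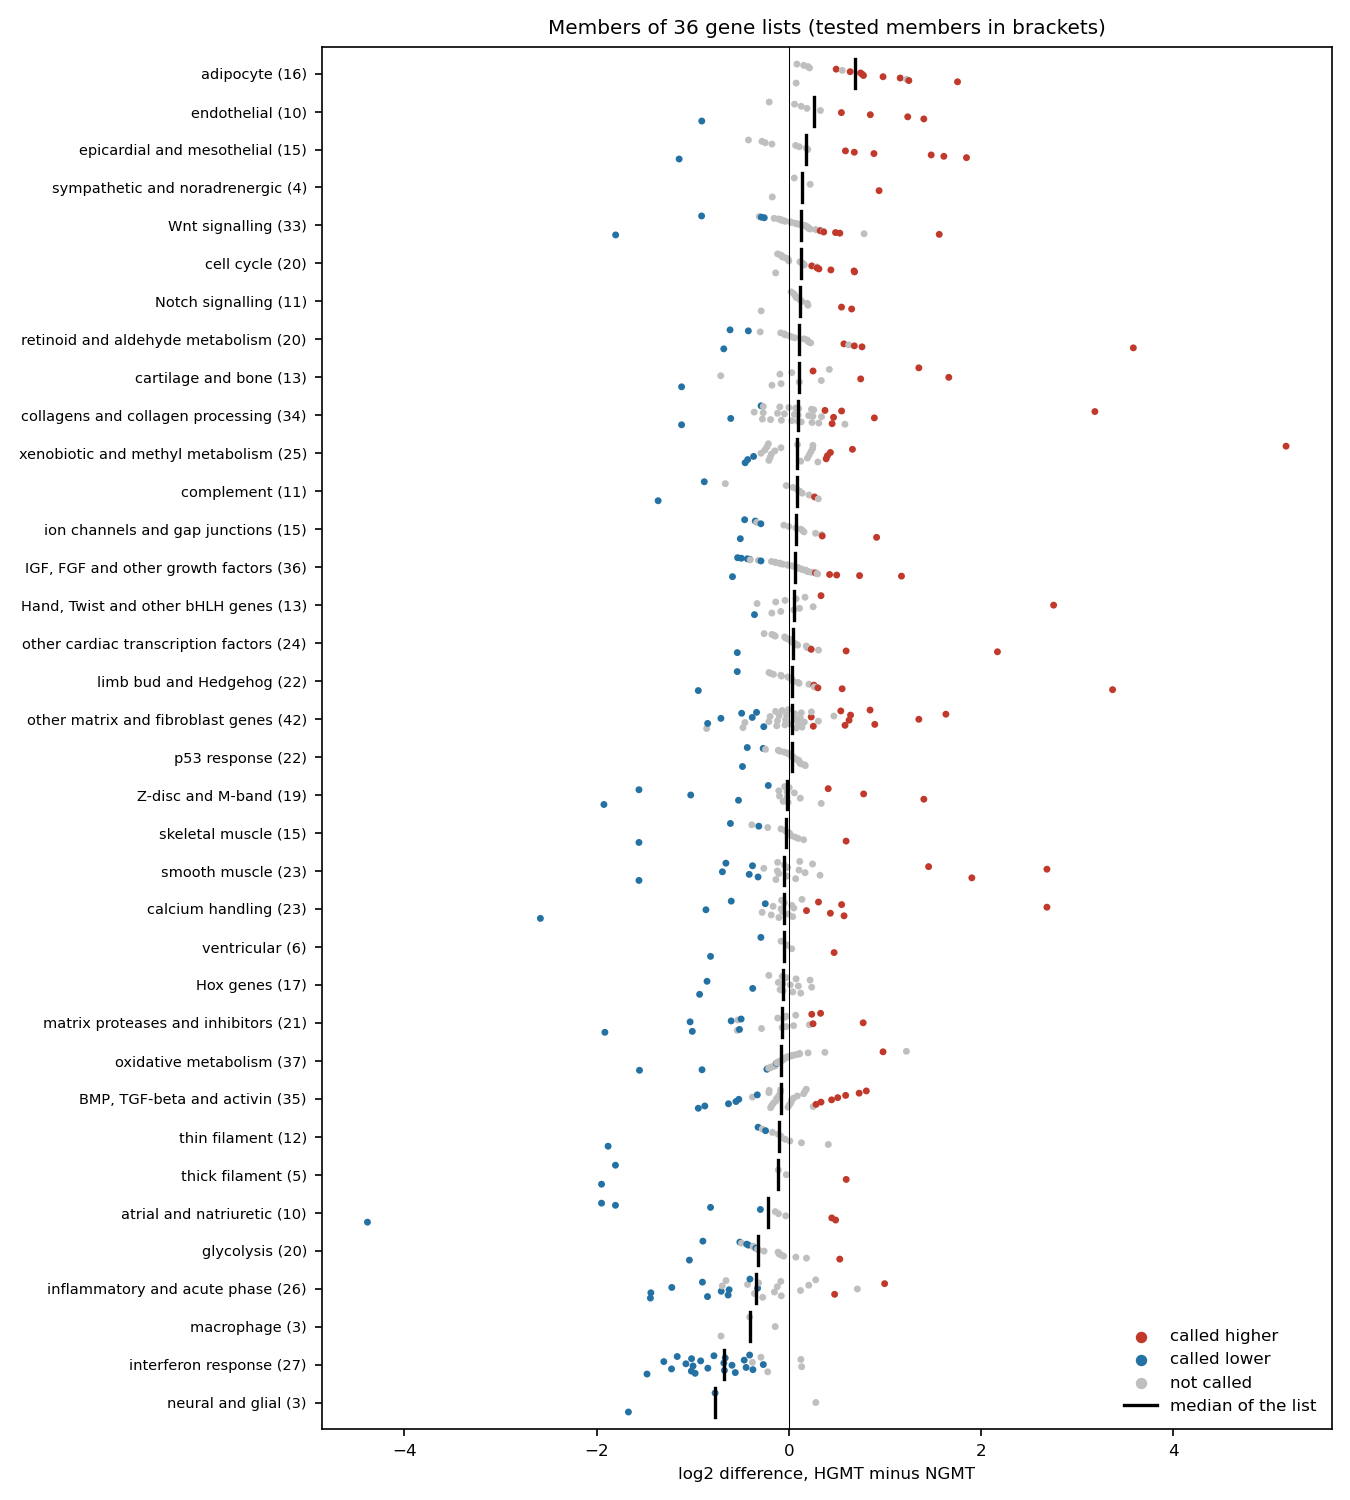
Each row is a gene list, with the number of tested members in brackets and lists ordered by their median (black bar); points are members placed by their log2 difference, HGMT minus NGMT, in red where called higher, blue where called lower and grey where not called. The adipocyte list has its 16 tested members above 0, and 25 of 27 interferon response genes lie below 0.

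Most interferon response genes were lower in HGMT. None of 27 tested genes rose and 22 fell (81.5%), against 7.36% and 9.43% of all genes, and the median difference was -0.67. Oas2, an oligoadenylate synthetase of the antiviral response, had 8.78, 8.99 and 9.35 on the HGMT arrays, against 10.52, 10.40 and 10.62 on the NGMT arrays. Rsad2, the antiviral protein viperin, had 7.11, 7.19 and 7.46 on the HGMT arrays, against 8.50, 8.39 and 8.78 on the NGMT arrays. Irf7, a transcription factor of the interferon response, had 8.78, 8.99 and 9.48 on the HGMT arrays, against 10.18, 10.23 and 10.32 on the NGMT arrays. In each case all HGMT arrays lay below all NGMT arrays, with differences of -1.48 ± 0.20, -1.30 ± 0.11 and -1.16 ± 0.16, and Zbp1, a nucleic acid sensor, showed -1.22 ± 0.18. The mean level of the list was 8.41 to 8.76 on the HGMT arrays and 9.19 to 9.33 on the NGMT arrays. Irf1 and Ifit2 did not pass, at 0.13 ± 0.06 and 0.12 ± 0.11. Oas2 averaged 8.81 in HNGMT cells and 10.55 in GMT cells.

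Of 26 inflammatory genes tested, 2 rose (7.69%) and 10 fell (38.5%), with a median of -0.34. The counts were 4 and 11 without HNGMT replicate 1, without HGMT replicate 3 they were 1 and 8, and without NGMT replicate 6 none rose and 7 fell. Il33, an alarmin cytokine, had 9.0, 8.81 and 8.77 on the HGMT arrays, against 10.34, 10.03 and 10.53 on the NGMT arrays. Ptgs2, the inducible cyclooxygenase, had 10.28, 10.42 and 10.34 on the HGMT arrays, against 11.68, 11.74 and 11.93 on the NGMT arrays. Ccl5, a chemokine, averaged 7.52 in HGMT and 8.74 in NGMT. The 3 differences were -1.44 ± 0.11, -1.44 ± 0.08 and -1.22 ± 0.18, each larger than the spread within either group. Of 11 complement genes, 1 rose (9.09%) and 2 fell (18.2%), but none rose whichever of the 6 arrays was left out and 1 fell without NGMT replicate 5. C2, a component of the classical pathway convertase, averaged 7.22 in HGMT and 8.59 in NGMT (difference -1.36 ± 0.09, adjusted p = 9.55e-08). Of the macrophage markers, Csf1r, C1qa, C1qb and Ptprc were below the array median on all 6 arrays, and none of the 3 tested macrophage genes was called. Cd68 was 9.15 to 9.24 in HGMT and 9.26 to 9.79 in NGMT (adjusted p = 0.0644), and was called at an adjusted p of 0.0311 without HNGMT replicate 1 and at 0.00872 without NGMT replicate 5, with a difference of -0.58 there. Lyz2 reached 8.59 on 1 NGMT array and stayed below the median on the other 5.

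Several epicardial and mesothelial genes were higher in HGMT. Of 15 tested, 6 rose (40%) and 1 fell (6.67%), with a median of 0.18. Wt1, a zinc-finger factor of epicardium and mesothelium, had 7.79, 7.65 and 7.35 on the HGMT arrays, against 6.12, 6.06 and 6.17 on the NGMT arrays, with NGMT below the array median. Msln, the mesothelial surface protein mesothelin, had 10.21, 10.32 and 10.17 on the HGMT arrays, against 8.50, 8.50 and 8.87 on the NGMT arrays. Gpm6a, a membrane glycoprotein, had 8.70, 9.06 and 8.65 on the HGMT arrays, against 6.83, 6.96 and 7.08 on the NGMT arrays. HGMT was higher on every array for all 3, by 1.48 ± 0.12, 1.61 ± 0.12 and 1.85 ± 0.12. Upk1b, a uroplakin, fell by 1.14 ± 0.13, with a mean of 7.58 in HGMT and 8.72 in NGMT. The keratins Krt8, Krt18 and Krt19 were not called, and Cdh1 lay below the array median throughout. HGMT was the lower group for these keratins, at -0.28 ± 0.09, -0.42 ± 0.15 and -0.18 ± 0.10 (limma, adjusted p = 0.0506, 0.0663 and 0.288). The groups did not overlap for Krt8 (7.37 to 7.58 in HGMT, 7.64 to 7.84 in NGMT) or Krt18 (7.83 to 7.88 and 8.14 to 8.53). The mean level of the list was 7.77 to 7.88 in HGMT and 7.49 to 7.60 in NGMT. Without HNGMT replicate 1 in the estimate of spread, 7 of the 15 rose and 4 fell, and 2 fell without NGMT replicate 4 or 5.

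Of 10 tested endothelial genes, 4 rose (40%) and 1 fell (10%), and 2 fell without HNGMT replicate 1. The share depends on the filter, which a gene can pass through the groups where it is high. With no filter, 4 of 20 rose (20%) and 1 fell (5%), against 4.58% and 5.14% of all genes, and the median was 0.05. Cdh5, the endothelial cadherin, had 7.24, 6.94 and 6.95 on the HGMT arrays, against 5.59, 5.63 and 5.69 on the NGMT arrays, with NGMT below the array median. Flt1, a receptor for VEGF, had 9.68, 9.67 and 9.58 on the HGMT arrays, against 8.32, 8.51 and 8.40 on the NGMT arrays. Both were higher in HGMT, by 1.40 ± 0.08 and 1.24 ± 0.14, as was the angiopoietin receptor Tek, by 0.85 ± 0.11. Erg, an ETS factor of endothelium and cartilage, fell by 0.91 ± 0.16. NGMT lay below the array median for Tek. The defining endothelial genes Pecam1, Kdr and Tie1 lay below the array median on all 6 arrays. Nes, an intermediate filament of progenitor cells, was the larger of 2 falls among 3 tested neural and glial genes, with 6.25, 6.11 and 6.17 on the HGMT arrays, against 7.70, 7.91 and 7.93 on the NGMT arrays and a difference of -1.67 ± 0.11, HGMT lying below the array median. One of the 3 rose without HNGMT replicate 1. Of 4 tested sympathetic and noradrenergic genes 1 rose (25%), the noradrenaline transporter Slc6a2, by 0.94 ± 0.11 with NGMT below the array median. With no filter, 1 of 15 rose (6.67%) and 1 fell (6.67%), near the shares of all genes.

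Adipocyte genes were higher in HGMT or did not pass the test. Of 16 tested, all had a difference above 0, 9 rose (56.2%) and none fell, and the median was 0.69. Without HNGMT replicate 1, 11 rose. Retn rose by 1.25 ± 0.39, a call that was lost whichever of the 6 arrays was left out (limma, adjusted p = 0.0547 to 0.140). Car3, a carbonic anhydrase abundant in fat, had 12.42, 12.05 and 12.39 on the HGMT arrays, against 10.95, 10.23 and 10.41 on the NGMT arrays. Lpl, lipoprotein lipase, had 10.32, 10.01 and 10.21 on the HGMT arrays, against 9.38, 9.18 and 9.05 on the NGMT arrays. No HGMT array of either gene overlapped NGMT, with differences of 1.75 ± 0.30 (adjusted p = 0.000872) and 0.98 ± 0.19 (adjusted p = 0.00205). Adipoq, the hormone adiponectin, had 8.60, 8.19 and 8.58 on the HGMT arrays, against 7.54, 7.18 and 7.18 on the NGMT arrays and a difference of 1.16 ± 0.30 (adjusted p = 0.0149). Its adjusted p was 0.0556 to 0.0601 without HGMT replicate 1 or 3 or NGMT replicate 5 or 6. HNGMT replicate 1 had the highest Adipoq signal, 9.14, beside 7.77 and 7.52 on the other HNGMT arrays. The mean level of the list was 8.77 to 9.02 in HGMT and 8.18 to 8.41 in NGMT. Whether the adipocyte, endothelial, epicardial or macrophage markers have a part in the other differences was not tested.

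Of 20 glycolysis genes, 1 rose (5.0%) and 6 fell (30%), with a median of -0.32. The muscle isoforms Pgam2 and Eno3 moved most. Pgam2, a phosphoglycerate mutase, had 7.12, 7.04 and 7.14 on the HGMT arrays, against 8.08, 8.15 and 8.17 on the NGMT arrays, and Eno3, an enolase, had 7.84, 7.89 and 7.77 on the HGMT arrays, against 8.75, 8.67 and 8.77 on the NGMT arrays. The differences were -1.04 ± 0.08 and -0.90 ± 0.05 and replicates lay close together. Of 37 oxidative metabolism genes, 1 rose (2.7%) and 5 fell (13.5%), which is near the share of all genes, with a median of -0.08. In this list 2 rose and 14 fell without HNGMT replicate 1, and 1 rose and 3 fell without HGMT replicate 3. Fabp3, the heart fatty acid binding protein, had 7.61, 7.57 and 7.77 on the HGMT arrays, against 9.18, 9.14 and 9.29 on the NGMT arrays. Pdk4, a kinase that restrains pyruvate oxidation, had 9.75, 9.52 and 9.68 on the HGMT arrays, against 10.42, 10.53 and 10.72 on the NGMT arrays. Both fell, with differences of -1.55 ± 0.15 and -0.90 ± 0.08 and no overlap of the groups.

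The extracellular matrix changed in both directions. Of 34 collagen and collagen processing genes, 6 rose (17.6%) and 3 fell (8.82%), with a median of 0.09, and 13 rose and 3 fell without HNGMT replicate 1. Besides Pcolce2, Col14a1, a fibril-associated collagen, rose by 0.89 ± 0.12, and Col10a1, the collagen of hypertrophic cartilage, had 10.13, 10.18 and 10.04 on the HGMT arrays, against 11.17, 11.31 and 11.22 on the NGMT arrays. Col10a1 fell by 1.12 ± 0.09 (adjusted p = 6.54e-07). Of 42 other matrix and fibroblast genes, 10 rose (23.8%) and 6 fell (14.3%), and 15 rose and 6 fell without HNGMT replicate 1. Fmod, the collagen-binding proteoglycan fibromodulin, had 10.33, 10.49 and 10.74 on the HGMT arrays, against 8.61, 9.47 and 8.59 on the NGMT arrays. Comp, a matrix protein of cartilage and tendon, had 11.99, 12.04 and 12.17 on the HGMT arrays, against 10.61, 11.07 and 10.47 on the NGMT arrays. The Fmod difference was 1.63 ± 0.34 and that of Comp 1.35 ± 0.18, and NGMT replicate 5 was the highest NGMT array for both. Of 13 cartilage and bone genes 4 rose (30.8%) and 1 fell (7.69%), with Phex, an endopeptidase of bone mineral control, at 1.66 ± 0.21. Of 21 matrix proteases and inhibitors, 4 rose (19%) and 6 fell (28.6%), and when any 1 of the 6 arrays was left out 1 or 2 rose. Plau, urokinase, had 8.61, 8.63 and 8.63 on the HGMT arrays, against 9.64, 9.50 and 9.74 on the NGMT arrays, a difference of -1.01 ± 0.08 (adjusted p = 1.18e-06).

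Signalling lists were mixed. Of 33 Wnt genes, 5 rose (15.2%) and 4 fell (12.1%), with a median of 0.13. The counts were 9 and 4 without HNGMT replicate 1, 3 and 2 without HGMT replicate 1 or 3, 4 and 2 without HGMT replicate 2, and 3 and 3 without NGMT replicate 6. Wif1, a secreted Wnt inhibitor, had 7.76, 7.67 and 7.76 on the HGMT arrays, against 6.16, 6.12 and 6.22 on the NGMT arrays, and NGMT was below the array median. Sfrp4, another secreted Wnt antagonist, had 7.16, 7.23 and 7.13 on the HGMT arrays, against 8.99, 8.998 and 8.94 on the NGMT arrays. These 2 inhibitors moved in opposite directions, by 1.56 ± 0.08 and -1.80 ± 0.29. Of 35 BMP, TGF-beta and activin genes, 7 rose (20%) and 6 fell (17.1%). Bmp4, a ligand, rose by 0.73 ± 0.12, while Grem1, a secreted BMP antagonist, had 10.55, 10.73 and 10.57 on the HGMT arrays, against 11.55, 11.53 and 11.59 on the NGMT arrays. Grem1 fell by 0.94 ± 0.13, and Inhba, which encodes activin A, fell by 0.88 ± 0.10. Of 36 growth factor genes, 5 rose (13.9%) and 6 fell (16.7%), and 3 or 4 rose and 3 or 4 fell without HGMT replicate 1, 2 or 3 or NGMT replicate 5 or 6. Igf2, an embryonic growth factor, had 11.86, 12.13 and 11.88 on the HGMT arrays, against 10.87, 10.89 and 10.60 on the NGMT arrays. Igf2 rose by 1.17 ± 0.13 (adjusted p = 1.52e-05), and Fgfr2, an FGF receptor, by 0.73 ± 0.10. Of 11 Notch genes 2 rose (18.2%) and none fell. One of the 2, the Notch ligand Jag1, rose by 0.55 ± 0.17, a call that was lost whichever of the 6 arrays was left out (adjusted p = 0.0529 to 0.116), while 3 rose without HNGMT replicate 1.

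Among position-related genes, none of 17 tested Hox genes rose and 3 fell (17.6%), which were Hoxc6, Hoxc8 and Hoxc9. Without HNGMT replicate 1, 1 rose and 4 fell, and with each array centred on its median 1 rose. Hoxc6 had 7.17, 7.23 and 7.11 on the HGMT arrays, against 8.31, 7.88 and 8.12 on the NGMT arrays, and Hoxc8 had 8.12, 8.24 and 8.03 on the HGMT arrays, against 9.17, 8.85 and 8.93 on the NGMT arrays. The differences were -0.93 ± 0.13 and -0.85 ± 0.13, with Hoxc9 at -0.38 ± 0.08, and HGMT was the lower group on every array, below the array median for Hoxc9. Of 22 limb bud and Hedgehog genes, 5 rose (22.7%) and 2 fell (9.09%), and 2 rose without HGMT replicate 3 and 3 without NGMT replicate 5 or 6. Gpc3 was the largest rise and Grem1 the largest fall of that list, and Dlx5, a homeobox gene of limb and skeleton, rose by 0.55 ± 0.12, with NGMT below the array median.

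Of 23 smooth muscle genes, 3 rose (13%) and 6 fell (26.1%), the rises being Casq2, Itga8 and Mylk. Itga8, an integrin chain, had 9.50, 9.71 and 9.64 on the HGMT arrays, against 7.80, 7.75 and 7.59 on the NGMT arrays. Mylk, myosin light chain kinase, had 9.85, 9.97 and 9.95 on the HGMT arrays, against 8.34, 8.61 and 8.46 on the NGMT arrays. These rose by 1.90 ± 0.10 and 1.45 ± 0.16, whereas Tagln, transgelin, fell by 0.69 ± 0.13 and Acta2, smooth muscle actin, fell by 0.32 ± 0.07. Of 15 skeletal muscle genes 1 rose (6.67%) and 3 fell (20%), and Myod1 and Myog lay below the array median on all 6 arrays. Of 20 cell cycle genes 6 rose (30%) and none fell, and 3 rose without NGMT replicate 6. The rises included the cell cycle inhibitors Cdkn1b (0.31 ± 0.08) and Cdkn1c (0.29 ± 0.08). Cdkn1b was not called from the mean of all its probe sets (0.18, limma, adjusted p = 0.0946). Its call was also lost without HGMT replicate 1 or NGMT replicate 6 (adjusted p = 0.0508 and 0.0555). Cdk1 at -0.12 ± 0.10 and Pcna at -0.04 ± 0.12 were among the 14 not called. Ccnb2 and Ccna2, the mitotic cyclins, averaged 8.20 and 7.29 in HGMT, against 7.52 and 6.61 in NGMT, rises of 0.68 ± 0.11 and 0.68 ± 0.11, with NGMT below the array median for Ccna2. None of 22 p53 response genes rose and 3 fell (13.6%), but 4 rose and 3 fell without HNGMT replicate 1. Of 20 retinoid and aldehyde genes 4 rose (20%) and 3 fell (15%), and of 25 xenobiotic and methyl metabolism genes 5 rose (20%) and 3 fell (12%), or 7 and 5 without HNGMT replicate 1, each list being led by a gene already given, Aldh3a1 and Inmt.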

How the data were processed

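Total RNA was labelled with biotin and hybridized to single-channel arrays, per the labels' protocols. The authors deposited log2 signal for 35556 probe sets, and the submitters' processing notes name MAS5. The summarization and scaling steps are not stated in the sources used here. Every deposited column was read (0 columns not used). The annotation table names 1 gene for 21789 probe sets, several for 1621 and none for 12146. For each of 19938 genes with 1 symbol, the probe set with the highest mean over all arrays stands for the gene. Values hold no detection call, so groups whose arrays all lie under the array median are named as such, and differences that involve them may misstate the size.

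The test was limma (version 3.58.1, R 4.3.3; lmFit, contrasts, eBayes with trend) on the 15 arrays of the second array series, with group means and 10 residual degrees of freedom. The other 3 groups add to the estimate of spread and to the filter, and GMT and HNGMT are also contrasted with HGMT and NGMT. Genes above the array median on at least 3 arrays were tested (11426, with 8512 left out), two-sided, with Benjamini-Hochberg adjustment over all of them, and were called at an adjusted p under 0.05. The fit was tested on simulated data. No read depth exists for arrays, and the number of arrays limits the precision.

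The groups, gene lists and named genes were chosen with earlier results of these data known. Genes were named by a rule: all 6 delivered factor genes; in each direction the 15 called genes of largest difference whose groups do not overlap and whose higher group lies above the array median; and, per list, at most 4 called members of largest change (at most 2 of smallest p where fewer than 2 were called). The text names part of these. Other list members (Actn2, Actc1, Tnnt2, Ryr2, Atp2a2, Irf1, Ifit2, Acta2, Tagln, Cdkn1c, Cdk1, Pcna, the keratins and the cell type markers) were added after their values were seen. Lists are described by counts and medians, with no set test. Promoter windows are those of RefSeq, assembly GRCm38.p6, which also served for chromosomes. Alternatives were quantile normalization, centring each array on its median, the 6 arrays alone, all 28 arrays with array series as a term, no filter or a stricter one, no trend, a robust fit, the mean of all probe sets of a gene, a replicate block, and leaving out each array in turn. Leaving out HNGMT replicate 1 was added after the data were seen.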

Additional observations from a re-analysis of the deposited data

How the results depend on the processing

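The count of genes called between HGMT and NGMT depended on which arrays estimate the spread, and the count of those at least 2-fold apart did so little. The first was 3778 with the 6 arrays alone, 3058 with all 28 arrays and 3473 without HNGMT replicate 1, and 1260 to 1494 when 1 of the 6 arrays was left out, the lowest without HGMT replicate 3. The second lay between 165 and 192 under every alternative run. With all 28 arrays, HGMT differed from GMT for 3152 genes and NGMT for 194, and HNGMT differed from HGMT for 68 genes and from NGMT for 3785. Without HNGMT replicate 1, HGMT differed from GMT for 3362 genes, and with no filter NGMT differed from GMT for 2. When 1 array was left out, HGMT differed from GMT for 1338 to 1896 genes and NGMT for 1 gene in each case, and HNGMT differed from HGMT for 1 to 2 genes and from NGMT for 1267 to 1900. The cause was not tested. HGMT was higher for 43.8% of called genes, and for 53.5% with each array centred on its median.

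No named gene changed direction past the test under any alternative, and 88 of their alternative values lost and 6 gained a call. Deviations from the group means correlated at -0.04, -0.17 and -0.04 for equally numbered arrays and at -0.08 to 0.11 for the others. Deviations from a mean of 3 arrays sum to 0, so these values cannot show whether the array numbers pair the samples. With the array number as a replicate block, 1894 genes were called and 182 of these were at least 2-fold apart.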
